A study of Mus musculus with 6 samples.

Results

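The chemokine receptors Ccr1, Ccr2, Ccr6, Ccr7, Cxcr3, Cxcr4, Cxcr5, Cxcr6 and Cx3cr1 were examined in the kidneys of lupus-prone mice. Every probe of the array that carries one of these gene names and is not a control was taken, which gave 13 of 56605 probes and 9 of 36870 gene names. Whole kidneys came from 3 female MRL/MpJ mice, the controls (MRL), and from 3 female MRL/MpJ-Fas lpr/lpr mice, the diseased group (LPR), all at 6 months of age. LPR mice share the MRL/MpJ background and carry the lpr mutation of Fas, a death receptor gene, on both copies and in all tissues. The labels name no treatment of either group, and each mouse gave 1 array. In whole kidney, more cells of a type and more RNA per cell cannot be told apart.

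Chemokine receptors are G protein-coupled receptors on the surface of leukocytes. They bind chemokines, small secreted proteins, and steer the cell up the gradient of its ligand through inhibitory G proteins, phosphoinositide 3-kinase and Rac. CXCR5 and CCR7 are known for placing B and T cells in lymphoid tissue, CXCR3 and CXCR6 for bringing effector T cells into inflamed organs, and CCR2 and CX3CR1 for the traffic of monocytes and macrophages.

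All 8 receptor genes that could be tested were higher in LPR kidneys, and Ccr1 was not well above background in any mouse. The values are log2 signals relative to the 75th percentile of each array, so that a value of 0 equals this percentile and negative values are dimmer. Log2 changes are given as LPR minus MRL with the standard error (SE) from limma, and each gene is represented by its brightest tested probe. In limma with Benjamini-Hochberg adjustment over 39924 tested probes, 12 of 12 tested receptor probes passed an adjusted p of 0.05 upward and 0 downward, and 6.54% and 6.07% of all tested probes did so. Counted by gene, 8 of 8 receptors passed upward and 0 downward, against 7.12% and 5.39% of all genes. The receptors were chosen with earlier results of these data known, so the shares over all probes and genes only give the scale. On each of the 12 probes the LPR mice lay above all MRL mice, which was the case for 11.1% of all tested probes. The only Cxcr5 probe and the dimmer probes of Ccr7 and Cxcr4 were tested only because the 3 LPR arrays were above background, with 0 of 3 MRL arrays, so that the filter itself favoured a higher value. Among the probes above background on all 6 arrays, 9 of 9 receptor probes, of 7 genes, passed upward and 0 downward, against 6.00% and 8.17% of all such probes. On these 9 the LPR mice lay above all MRL mice, as on 3609 of 35999 such probes. The median log2 change of the 8 receptors was 2.49, or 5.60-fold, and the median over all tested probes was -0.13. With 3 mice a group no exact 2-sided permutation test reaches a p under 0.1, and the adjusted p-values are those of limma.

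Stretches of the Cx3cr1 and Cxcr4 probes are shown because they place the measured signal along the transcript. Probe coordinates are those of the mouse build mm9, as the array files give them. Capitals mark AATAAA, the hexamer that most often precedes the cleavage site at the end of a messenger RNA, in a stretch of 30 bases taken from the brighter probe of each gene. The other Cxcr4 probe is given whole.
Cx3cr1, probe A_55_P2007964: tgtaattctgtcAATAAAcattggtttcct
Cxcr4, probe A_52_P585124: tgtggtaaattgAATAAAgctagccgtgat
Cxcr4, probe A_55_P2745744: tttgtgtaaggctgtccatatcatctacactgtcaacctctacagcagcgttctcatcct
The other Cxcr4 probe starts 1035 bases from the first toward the 5′ end, and the second Cx3cr1 probe starts 1207 bases toward the 5′ end of its gene. Thus Cx3cr1 and Cxcr4 were each read at 2 separate places of the transcript. The lower coordinates of the Cxcr6 probes are 114 bases apart, and those of the Ccr7 probes 38 bases apart. The given coordinates of the dimmer Ccr7 probe span fewer bases than its length of 60.

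Promoters are shown as background, and their part in the changes was not tested. RefSeq promoter sequences on the build GRCm38.p6 were found for 7 of the 9 genes, with 2 start sites for Ccr6, which gave 8 promoters. The 250 bases before the start were searched on both strands for 7 motifs, those of RUNX, interferon regulatory factor, the gamma-activated sequence, AP-1, PU.1, NFAT and the TATA box. Shown are the promoters with the RUNX letters and the Ccr6 promoter with the gamma-activated sequence. Capitals mark matches of the first 5 of these motifs, and a match on the other strand is shown as its reverse complement, which for RUNX is ACCACA.
Cxcr3, chrX:101734148-101734397, minus strand: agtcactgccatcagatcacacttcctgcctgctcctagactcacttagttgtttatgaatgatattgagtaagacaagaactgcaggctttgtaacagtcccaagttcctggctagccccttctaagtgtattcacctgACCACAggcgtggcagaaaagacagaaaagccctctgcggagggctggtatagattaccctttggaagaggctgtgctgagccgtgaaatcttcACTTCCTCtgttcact
Cxcr6, chr9:123806227-123806476, plus strand: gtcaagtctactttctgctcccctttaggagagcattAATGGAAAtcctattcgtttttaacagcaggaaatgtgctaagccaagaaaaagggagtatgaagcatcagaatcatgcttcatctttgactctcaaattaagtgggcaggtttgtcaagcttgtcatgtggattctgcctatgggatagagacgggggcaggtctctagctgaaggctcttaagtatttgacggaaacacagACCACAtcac
Cx3cr1, chr9:120068297-120068546, minus strand: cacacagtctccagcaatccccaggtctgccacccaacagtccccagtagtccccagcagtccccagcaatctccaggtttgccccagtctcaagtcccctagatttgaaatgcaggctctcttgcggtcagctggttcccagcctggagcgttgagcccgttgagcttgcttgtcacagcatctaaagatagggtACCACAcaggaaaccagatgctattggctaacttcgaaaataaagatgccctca
Ccr1, chr9:123968693-123968942, minus strand: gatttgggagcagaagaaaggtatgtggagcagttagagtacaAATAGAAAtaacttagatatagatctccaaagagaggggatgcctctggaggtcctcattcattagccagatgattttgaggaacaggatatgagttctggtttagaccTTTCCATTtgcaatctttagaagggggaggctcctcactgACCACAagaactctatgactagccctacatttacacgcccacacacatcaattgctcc
Ccr6, chr17:8235793-8236042, plus strand: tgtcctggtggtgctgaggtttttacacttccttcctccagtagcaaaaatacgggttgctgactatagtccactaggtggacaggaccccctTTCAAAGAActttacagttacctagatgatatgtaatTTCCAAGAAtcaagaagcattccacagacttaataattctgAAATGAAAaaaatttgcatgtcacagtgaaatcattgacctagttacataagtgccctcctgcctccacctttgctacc
The RUNX letters TGTGGT stood in 4 of the 8 receptor promoters, those of Cxcr3, Cxcr6, Cx3cr1 and Ccr1, and in 14.05% of 32851 mouse promoters. The interferon regulatory factor core, AANNGAAA, stood in 4 of 8, those of Cxcr6, Ccr1 and both of Ccr6, and in 21.31% of all promoters. The gamma-activated sequence, searched as TTCNNNGAA, was in 1 of 8, at 157 and 120 bases before a Ccr6 start, and in 7.02% of all promoters. The PU.1 letters GAGGAAGT were in 1 of 8, that of Cxcr3 at 16 bases before the start, and in 2.44% of all promoters. The NFAT letters GGAAAA were in that of Ccr2 alone, against 20.43% of all promoters, and the TATA box letters TATAAA in that of Cxcr4 alone, against 12.37%. The AP-1 letters TGANTCA were in 0 of 8 receptor promoters and in 6.75% of all promoters. These matches are letters in a window. What they mean for the level of a receptor was not tested.

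**Figure D1:**
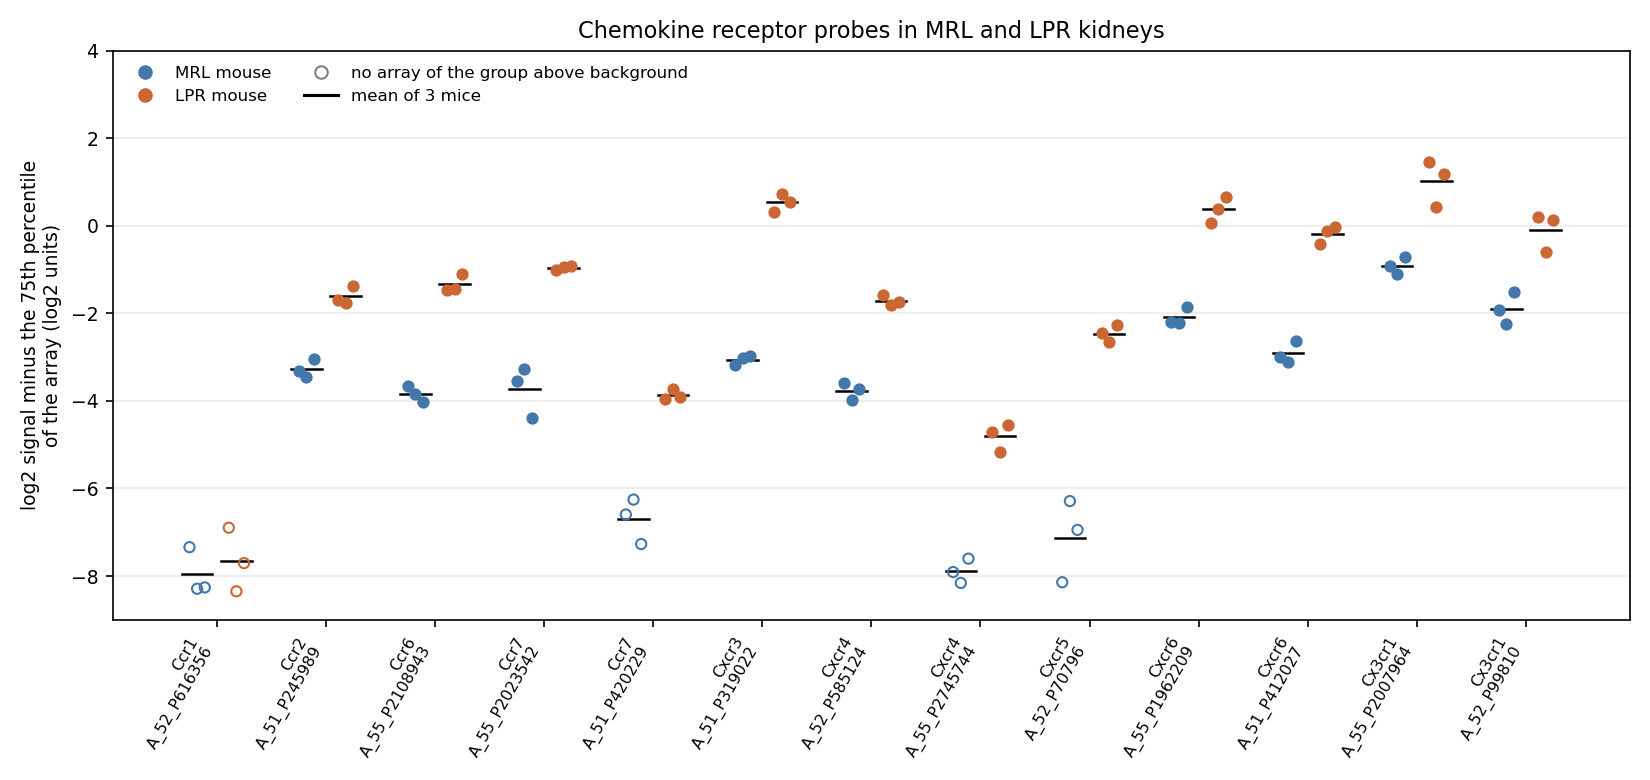
Log2 signal minus the 75th percentile of the array (vertical axis, log2 units) for the 13 probes of the 9 receptor genes, with 1 point per mouse and a bar at the mean of 3 mice. Open circles mark a group with no array well above background. The LPR mice lie above the MRL mice on each probe but that of Ccr1, where the groups overlap below background.

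The receptors of lymphoid tissue were Cxcr5, Ccr7 and Ccr6. Cxcr5, the CXCL13 receptor of follicular B cells and follicular helper T cells, was measured by probe A_52_P70796 (NM_007551, chromosome 9, 44320071 to 44320130). Its log2 signals were -8.14, -6.29 and -6.95 in MRL mice and -2.46, -2.66 and -2.27 in LPR mice. None of the MRL arrays was well above background for Cxcr5, with intensities of 2.57, 9.04 and 5.67, whereas the 3 LPR arrays were, with intensities of 169, 116 and 155. The LPR level of Cxcr5 was therefore higher by at least 11.1-fold (adjusted p = 0.000716), a bound set by the lowest signal well above background on the MRL arrays. The fitted log2 change of 4.66 (SE 0.43) rests on MRL signals at background and is not a measured size.

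Ccr7 guides naive T cells and mature dendritic cells to CCL19 and CCL21. Its brighter probe, A_55_P2023542 (NM_007719, chromosome 11, 99005551 to 99005610), gave -3.54, -3.26 and -4.38 in MRL mice and -1.01, -0.95 and -0.92 in LPR mice. The LPR mice were close to each other, with a mean of -0.96 ± 0.04 (SD, n = 3), and the MRL mice were spread, with a mean of -3.73 ± 0.58 (SD, n = 3). Ccr7 was 6.82-fold higher in LPR mice, with a log2 change of 2.77 (SE 0.27, 95% interval 2.12 to 3.42, adjusted p = 0.000942). The dimmer Ccr7 probe, A_51_P420229 (99005513 to 99005538), was above background in 0 of 3 MRL mice and 3 of 3 LPR mice and was at least 4.22-fold higher (adjusted p = 0.000557). On both probes MRL 3 was the lowest mouse.

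Ccr6, the CCL20 receptor of B cells and Th17 cells, was measured by probe A_55_P2108943 (NM_009835, chromosome 17, 8449933 to 8449992). The Ccr6 signals were -3.66, -3.84 and -4.03 in MRL mice and -1.47, -1.44 and -1.10 in LPR mice, with means of -3.84 ± 0.19 and -1.34 ± 0.21 (SD, n = 3 each). The groups were apart by more than 10 times these SDs, and the log2 change was 2.51 (SE 0.15, 95% interval 2.15 to 2.87, adjusted p = 0.000107).

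The receptors of effector T cells were Cxcr3 and Cxcr6. Cxcr3, the receptor of the interferon-induced chemokines CXCL9 and CXCL10 on Th1 and cytotoxic T cells, was measured by probe A_51_P319022 (NM_009910, chromosome X, 98926920 to 98926979). MRL mice had -3.18, -3.02 and -2.98, and LPR mice had 0.31, 0.74 and 0.55. Thus Cxcr3 lay below the 75th percentile of the array in every MRL mouse and above it in every LPR mouse. Its change of 12.1-fold (SE of the log2 change 0.14, 95% interval 3.26 to 3.92 on the log2 scale, adjusted p = 1.80e-05) was the largest among the receptors measured above background in both groups. Of all tested probes, 369 (0.924%) had a larger log2 change than the 3.59 of Cxcr3.

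Cxcr6, the receptor of CXCL16 on resident and effector T cells and NKT cells, had 2 probes that are above background in all mice. The brighter, A_55_P1962209 (NM_030712, chromosome 9, 123720719 to 123720778), gave -2.20, -2.21 and -1.85 in MRL mice and 0.08, 0.39 and 0.67 in LPR mice. The other, A_51_P412027 (123720605 to 123720664), gave -2.98, -3.12 and -2.62 in MRL mice and -0.41, -0.12 and -0.02 in LPR mice. The groups did not overlap on either probe, and LPR 1 was the lowest LPR mouse on both. The log2 changes were 2.47 (SE 0.18, adjusted p = 0.000253) and 2.72 (SE 0.17, adjusted p = 0.000117), which are 5.52-fold and 6.61-fold.

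The receptors of monocytes and macrophages were Ccr2, Cx3cr1 and Ccr1. Ccr2, which releases monocytes from the bone marrow toward CCL2, was measured by probe A_51_P245989 (NM_009915, chromosome 9, 124022948 to 124023007). Its signals were -3.32, -3.46 and -3.04 in MRL mice and -1.69, -1.76 and -1.37 in LPR mice. Ccr2 had the smallest change of the 8 tested receptors, 3.18-fold with a log2 change of 1.67 (SE 0.16, 95% interval 1.29 to 2.05, adjusted p = 0.000871). Of the 39924 tested probes, 1237 had a larger upward change.

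Cx3cr1, the fractalkine receptor of patrolling monocytes and of resident kidney macrophages, was above background in all mice on both probes. The brighter probe, A_55_P2007964 (NM_009987, chromosome 9, 119957811 to 119957870), gave -0.92, -1.10 and -0.72 in MRL mice and 1.45, 0.42 and 1.18 in LPR mice. The second probe, A_52_P99810 (119959018 to 119959077), gave -1.91, -2.25 and -1.52 in MRL mice and 0.20, -0.59 and 0.14 in LPR mice. LPR 2 was the lowest LPR mouse on both probes, and the SD of the LPR mice on the brighter probe, 0.53, was the largest among the 12 tested probes. The log2 changes were 1.93 (SE 0.27, adjusted p = 0.00461) and 1.81 (SE 0.27, adjusted p = 0.00645), with the largest adjusted p-values of the receptor probes. The calls of both Cx3cr1 probes were lost with the methods' t-test after adjustment, with adjusted p = 0.0513 and 0.0595 on log2 values.

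Ccr1, a receptor of CCL3, CCL5, CCL7 and CCL9 on monocytes and neutrophils, was measured by probe A_52_P616356 (NM_009912, chromosome 9, 123877790 to 123877849). Its signals were -7.34, -8.29 and -8.26 in MRL mice and -6.90, -8.35 and -7.71 in LPR mice. None of the 6 arrays was well above background for Ccr1, so the probe was not tested and these values have no order. The intensities of the probe were 2.24 to 7.81.

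Cxcr4, the CXCL12 receptor found on most leukocytes and on plasma cells, was measured at both places shown above. At the AATAAA end, probe A_52_P585124 (NM_009911, chromosome 1, 130485079 to 130485138) gave -3.60, -3.98 and -3.73 in MRL mice and -1.57, -1.81 and -1.74 in LPR mice. The log2 change there was 2.06 (SE 0.14, 95% interval 1.74 to 2.38, adjusted p = 0.000153), or 4.17-fold. At the 5′ side, probe A_55_P2745744 (130486114 to 130486173) gave -7.91, -8.16 and -7.60 in MRL mice, none of them above background, and -4.72, -5.16 and -4.55 in LPR mice. There Cxcr4 was at least 2.18-fold higher (adjusted p = 0.000161). The groups did not overlap at either place.

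**Figure D2:**
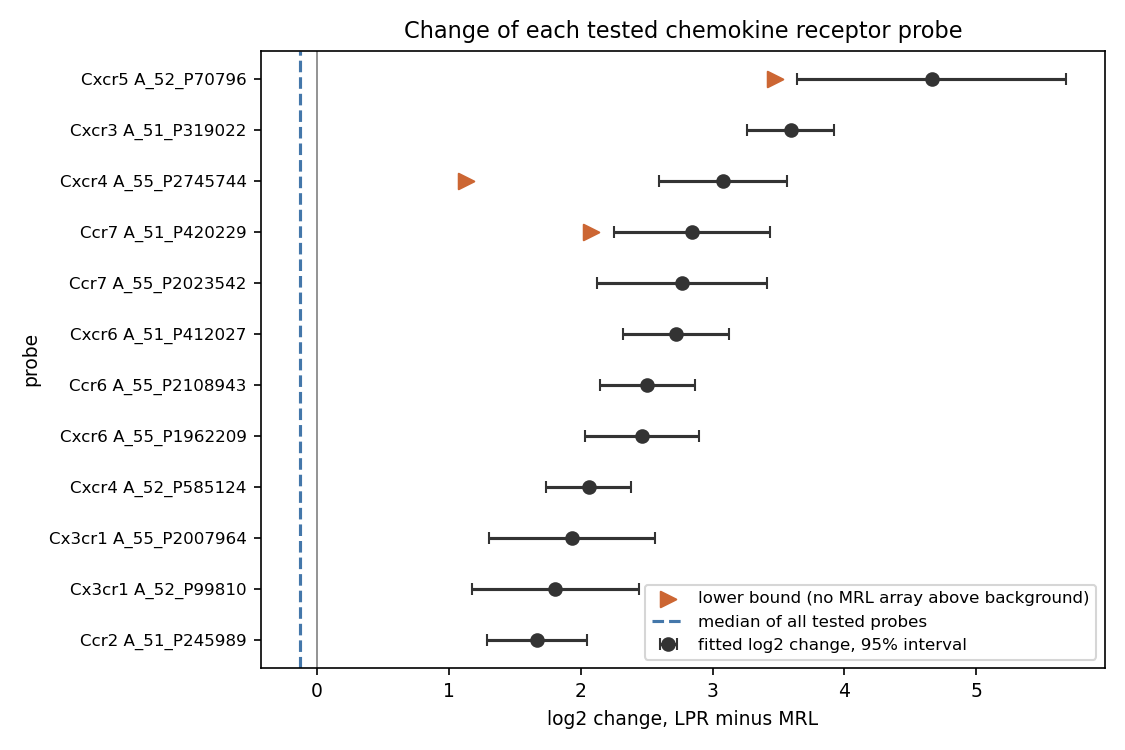
Fitted log2 change, LPR minus MRL (horizontal axis), of the 12 tested receptor probes with 95% intervals from limma, and the median of all tested probes as a dashed line at -0.13. Triangles give the lower bound for the 3 probes that no MRL array measured above background. Each interval lies to the right of 0, from Ccr2 at 1.67 to Cxcr5 at 4.66.

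Ordered by the change of the brightest probe, the receptors above background in both groups ran from Cxcr3 through Ccr7, Ccr6, Cxcr6, Cxcr4 and Cx3cr1 to Ccr2. Cxcr5 has no settled place relative to Cxcr3, since its lower bound of 3.47 on the log2 scale lies below the 3.59 of Cxcr3 and its fitted value of 4.66 above it. Most neighbours in this order were not apart. Ccr7 and Ccr6 differed by 0.26 with a combined standard error of 0.31, Ccr6 and Cxcr6 by 0.04 with 0.24, and Cxcr4 and Cx3cr1 by 0.13 with 0.30. Cxcr6 and Cxcr4 differed by 0.40 with 0.23, and Cx3cr1 and Ccr2 by 0.27 with 0.31. The step from Cxcr3 to Ccr7 was 0.82 with a combined standard error of 0.31, so that Cxcr3 stood somewhat apart from the receptors below it. These errors treat the probes as independent, although they share the same 6 mice, and no p was computed. The order is that of the percentile-scaled signals. With normexp background correction, which compresses dim signals by an offset, Cxcr3 came first with 2.80, and Cxcr5, Ccr6 and Cxcr4 had 1.60, 1.66 and 1.23, with 8 of 8 receptors still higher.

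The mice within a group did not keep 1 order over the receptors. MRL 3 was the highest MRL mouse for Ccr2, Cxcr3, Cx3cr1 and Cxcr6 and the lowest for Ccr6 and Ccr7. LPR 2 was the lowest LPR mouse for Ccr2, Cx3cr1, Cxcr4 and Cxcr5 and the highest for Cxcr3. LPR 3 was the highest for Ccr2, Ccr6, Ccr7, Cxcr5 and Cxcr6 on their brighter probes. With each of the 6 mice left out in turn, 8 of 8 receptor genes and 12 of 12 probes stayed higher.

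The ligands of these receptors, 16 genes on a list of known mouse pairs, were all tested, and 13 were higher in LPR mice, 0 lower and 3 did not pass. Their median log2 change was 2.27, against -0.13 over all tested probes. Cxcl13, the CXCR5 ligand that draws B cells into follicles, went from -6.05, -4.94 and -4.11 in MRL mice to 0.94, 0.82 and 0.90 in LPR mice. The log2 change of Cxcl13 was 5.93 (SE 0.44, adjusted p = 0.000253), with 2 of 3 MRL mice above background. Among the CXCR3 ligands, Cxcl9 had a log2 change of 5.96 (SE 0.25) and Cxcl10 of 2.43 (SE 0.34, adjusted p = 0.00540). Cxcl11, the third CXCR3 ligand, had a log2 change of -0.17 (SE 0.11, adjusted p = 0.352) and did not pass, nor did its second probe. The brightest Cxcl11 probe had high signals, with means of 8.07 in MRL and 7.90 in LPR mice. Whether this probe reads Cxcl11 alone was not tested, so its change may not be that of Cxcl11. The CCR7 ligand Ccl19 had a log2 change of 2.10 (SE 0.18, adjusted p = 0.000547), and Ccl21a of 0.88 (SE 0.24, adjusted p = 0.0571), which did not pass.

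For the monocyte receptor Ccr2, the ligands Ccl2, Ccl7 and Ccl12 were higher by 4.19-fold, 8.59-fold and 34.5-fold, the last with 2 of 3 MRL mice above background. The ligands of Ccr1 were high although Ccr1 was not measurable. Ccl5 had a log2 change of 4.69, Ccl9 of 2.86, and Ccl3, which no MRL array measured above background, was at least 13.4-fold higher (adjusted p = 0.00123). For the remaining receptors the changes of the ligands were small. Ccl20, the CCR6 ligand, had a log2 change of 0.95 (SE 0.24, adjusted p = 0.0438), Cxcl16, the CXCR6 ligand, of 0.61 (SE 0.14, adjusted p = 0.0348), and Cx3cl1, the CX3CR1 ligand, of 0.55 (SE 0.11, adjusted p = 0.0190). Cxcl12, the CXCR4 ligand, had a log2 change of 0.29 (SE 0.15, adjusted p = 0.236) on its brightest probe, and its other probe passed with 0.71 (adjusted p = 0.0475). Only 1 of 2 Cx3cl1 probes passed.

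**Figure D3:**
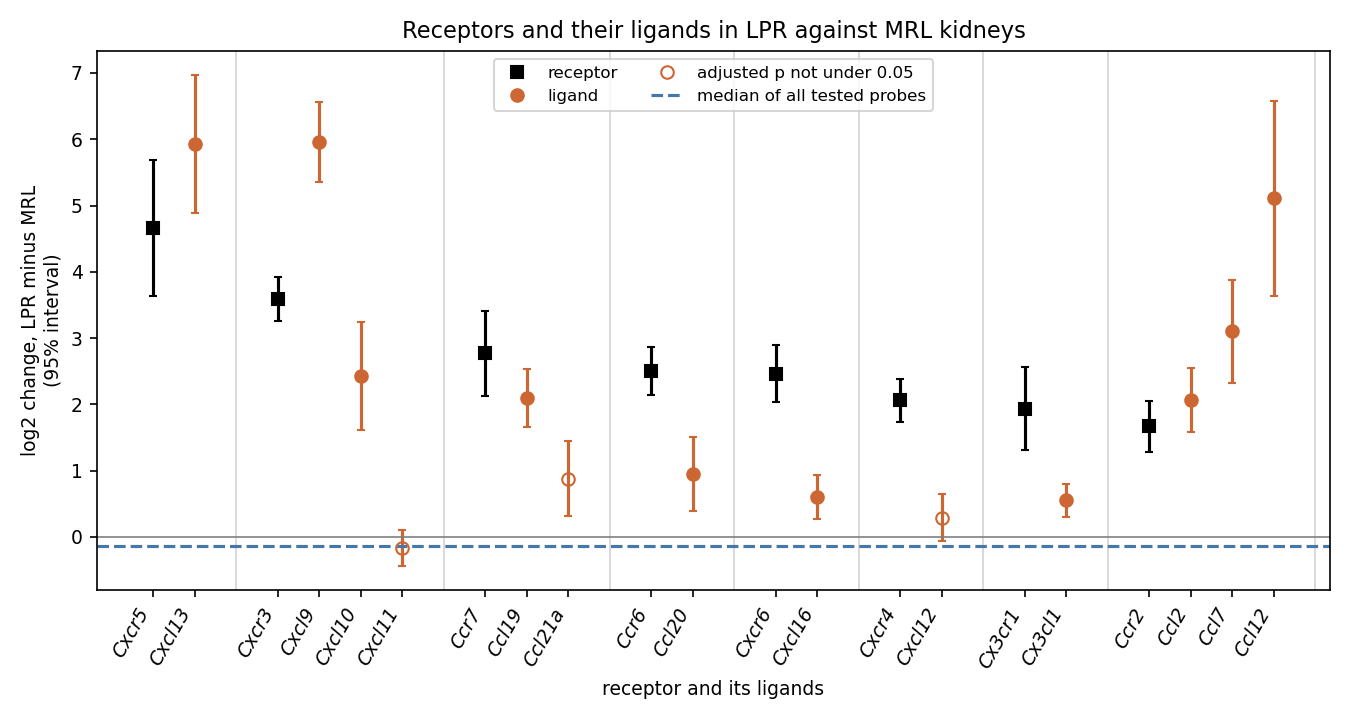
Log2 change, LPR minus MRL, with 95% intervals (vertical axis) for each tested receptor (squares) and its listed ligands (circles), in the order of the receptors' changes. Open circles did not pass an adjusted p of 0.05. The ligands of Cxcr5, Cxcr3 and Ccr2 include changes above 5, whereas those of Ccr6, Cxcr6, Cxcr4 and Cx3cr1 are at 0.95 or less. The fitted value of Cxcr5 rests on MRL signals at background.

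The array also holds 14 other chemokine receptor genes on the list, of which 11 were tested and 4 were higher, 0 lower and 7 did not pass. Their median log2 change was 0.46, or 0.42 with Xcr1 at its bound. Ccr3, the eotaxin receptor of eosinophils, had a log2 change of 1.85 (SE 0.24, adjusted p = 0.00385) with 1 of 3 MRL mice above background. Ccr10, found on plasma cells that home to mucosa and skin, had 1.79 (SE 0.41, adjusted p = 0.0359), and Ccrl2, a chemerin-binding receptor, had 1.02 (SE 0.14, adjusted p = 0.00436). Xcr1, the receptor of cross-presenting dendritic cells, passed in the fit (adjusted p = 0.0309), which rests on MRL signals at background. Its bound was 1.34-fold. With every signal raised to at least the detection limit, as for the bound, Xcr1 did not pass. The neutrophil receptor Cxcr2 had a log2 change of 0.46 (adjusted p = 0.227) and Ccr9, of gut-homing T cells, of 0.17 (adjusted p = 0.589). Ccr8, of skin T cells and regulatory T cells, had -0.79 (SE 0.23, adjusted p = 0.0694) and passed as lower under 4 alternatives, without LPR 2 among them (-1.03, adjusted p = 0.0222). The scavenging receptors Ackr1, Ackr2, Ackr3 and Ackr4 lay between -0.34 and 0.52 and did not pass. Ccr4, Cxcr1 and Ccr1l1 were too dim to be tested. The count of 4 went down to 1 or 2 under several alternatives, and Ccrl2 was higher in each of them.

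On the genome, 5 of the 9 receptor genes lie on chromosome 9. The Cxcr6 and Ccr2 probes are 302.4 kb apart (123720605 to 124023007), and Xcr1, Ccr1, Ccr1l1 and Ccr3 are read between them. Within this stretch Cxcr6, Ccr3 and Ccr2 were higher in LPR mice, and so was Xcr1 in a fit that rests on MRL signals at background. Ccr1 and Ccr1l1 were not above background. Ccr9, whose tested probe lies just before Cxcr6 (123690334 to 123690393), did not pass. Likewise Ccr8 (120003941 to 120004000) is the listed receptor nearest to Cx3cr1, and its log2 change of -0.79 had the opposite sign to that of its neighbour.

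Downstream of the receptors, 27 genes of signalling and desensitization were listed and tested, of which 14 were higher, 0 lower and 13 did not pass. The median log2 change was 0.57. Most of the largest changes were those of genes known from leukocytes. Rgs1, which shortens chemokine signals in lymphocytes, went from -5.67 ± 0.23 in MRL mice to -1.10 ± 0.12 in LPR mice (SD, n = 3 each). Its log2 change was 4.57 (SE 0.14), and 1 of 3 MRL mice was above background. The Rac activators Dock2 and Vav1 had 3.22 and 3.09, Rac2 itself had 3.13, and the phosphoinositide 3-kinase subunits Pik3r5 and Pik3cg had 3.28 and 2.37. Coro1a and Fermt3, of the actin cortex and of integrin activation in leukocytes, had 2.86 and 3.00, and Rgs16 had 2.78. Smaller changes that passed were those of Prex1 (1.64), Rgs19 (1.26), Arrb2 (0.93), Grk2 (0.57) and Grk6 (0.54).

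Several widely expressed genes of the same pathway did not pass. The inhibitory G protein subunits Gnai2 and Gnai3 had log2 changes of 0.19 (95% interval -0.15 to 0.52) and -0.02 (95% interval -0.24 to 0.21). Gnb2 had 0.09, Cdc42 had -0.05, Rap1a had 0.21 and Arrb1 had 0.27. For Elmo1, the partner of Dock2, the brightest probe had -0.04 (adjusted p = 0.955), but 3 of its 5 probes were higher. Likewise the brightest probe of Plcb2 had 0.01 (adjusted p = 0.975), but 1 of its 4 tested probes was higher with 2.00 (adjusted p = 0.000297). Rgs2, Rgs13, Rgs18, Grk5 and Pik3r6 did not pass either.

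Many markers of the leukocytes that carry these receptors were higher too, to an extent that differed between the lists. Their part in the result was not tested. All 8 T cell markers were higher, with a median log2 change of 3.71, and the log2 of their summed signal was 0.68 to 0.94 in MRL mice and 3.92 to 4.10 in LPR mice. Of 7 B cell markers, 6 were tested and 3 were higher, Cd79a and Cd79b among them, with the summed signal at 0.50 to 0.66 in MRL mice and 2.09 to 2.47 in LPR mice. The B cell markers Pax5 and Fcer2a did not pass, Blk was too dim, and Cd22 passed on 1 of 3 tested probes only. Plasma cell markers were higher for 4 of 5 genes, with summed signals of 4.99 to 5.54 in MRL mice and 6.26 to 7.17 in LPR mice. Macrophage markers were higher for 7 of 8 genes, with 4.14 to 4.45 in MRL mice and 5.58 to 5.74 in LPR mice, and Mertk did not pass. Monocyte markers were higher for 4 of 4 genes, with 6.09 to 6.27 in MRL mice and 6.58 to 6.83 in LPR mice.

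Of 5 NK cell markers, 4 were tested and 3 were higher, with summed signals of -1.94 to -0.99 in MRL mice and 0.88 to 1.33 in LPR mice, while Ncr1 did not pass and Klrb1c was too dim. Neutrophil markers were higher for 3 of 6 genes, with 1.06 to 1.41 in MRL mice and 2.47 to 3.60 in LPR mice, and LPR 2 was the highest. Dendritic cell markers were higher for 4 of 6 genes, and their summed signal was 6.55 to 6.83 in MRL mice and 6.55 to 6.68 in LPR mice. This sum is led by the bright probe of Siglech, which had means of 6.65 in MRL and 6.55 in LPR mice and did not pass. For the 8 tested receptors themselves the log2 of the summed signal was 0.20 to 0.41 in MRL mice and 2.57 to 2.85 in LPR mice.

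**Figure D4:**
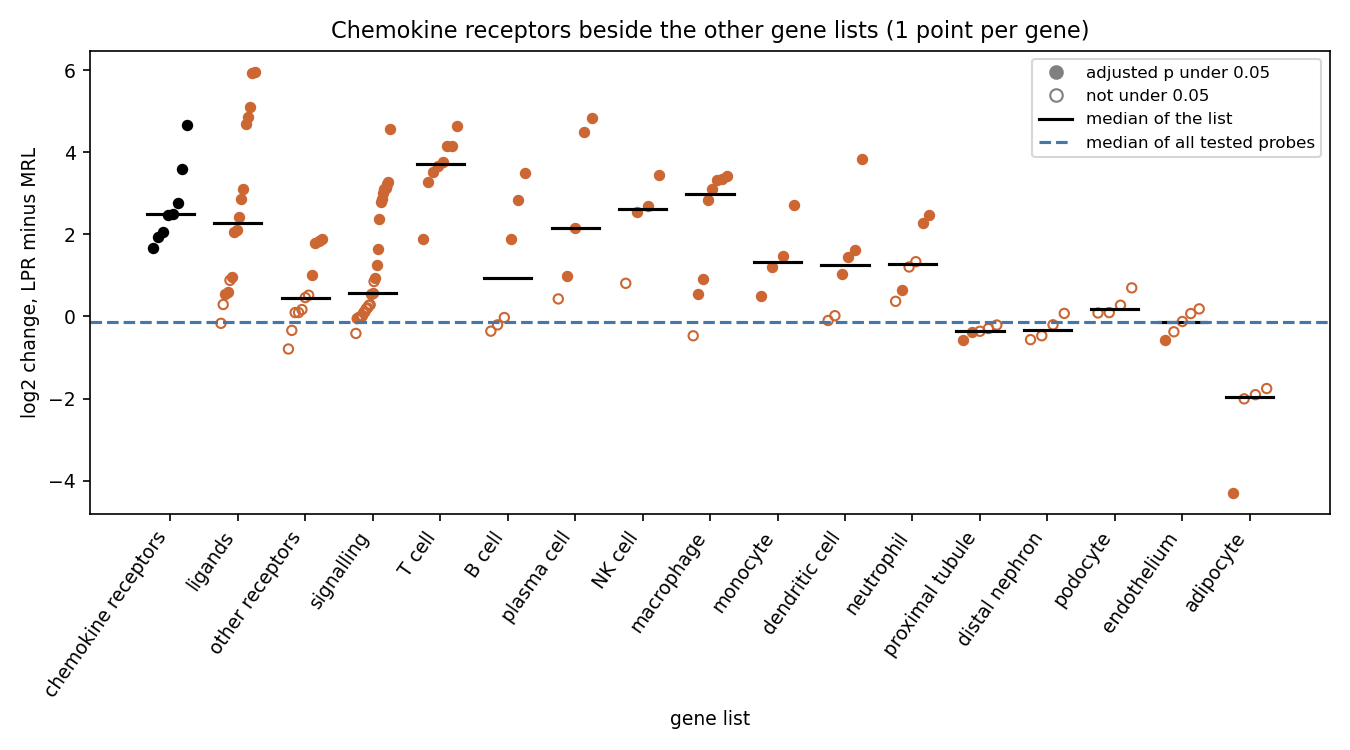
Log2 change, LPR minus MRL (vertical axis), with 1 point per tested gene for the receptors and each other list, filled where the adjusted p was under 0.05. Bars are the median of a list and the dashed line is the median of all tested probes at -0.13. The receptors lie between 1.67 and 4.66, the latter the fitted value of Cxcr5 against background. The largest change of each leukocyte list ran from 2.48 for neutrophil markers to 4.82 for plasma cell markers, the latter also fitted against background. The lowest leukocyte marker was the macrophage gene Mertk at -0.47. The tubule, podocyte, distal nephron and endothelial lists lie between -0.57 and 0.70.

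The kidney itself was present in all 6 arrays. Of the proximal tubule markers, 0 of 5 were higher and 2 were lower (Lrp2 and Slc5a2), with a median log2 change of -0.36. None of 4 podocyte and 4 distal nephron markers passed, and of 5 endothelial markers Kdr was lower. All of these markers were well above background in every mouse. Of 4 adipocyte markers, Ucp1 was lower, and LPR 3 was the lowest mouse for each of the 4. The receptors of LPR 3 lay with those of the other LPR mice. Of 59305 spots per array, controls left aside, 69.6% to 70.6% were well above background in MRL mice and 70.7% to 73.5% in LPR mice. Precision is limited by the number of arrays. The mutated gene Fas had a log2 change of -0.47 on its brighter probe (SE 0.24, adjusted p = 0.235) and was at least 1.47-fold higher on the other (adjusted p = 0.0337). Where these probes lie relative to the mutation was not analysed here, so they do not check the labels.

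The arrays share 1 slide, and each has 2 position numbers, whose meaning is not given in the sources used here. By the first number, all MRL mice and LPR 1 were in 1 set and LPR 2 and LPR 3 in the other. With this number as a block, 8 of 8 receptor genes passed. LPR 2 and LPR 3 share their set with no MRL mouse and inform only the spread in that fit. Its fitted changes are thus those of LPR 1 against the 3 MRL mice. Within the set that holds both groups, where LPR 1 alone stands against 3 MRL mice and is assumed to vary as they do, 6 of 8 passed. Cxcr5 and Ccr7 kept fitted log2 changes of 4.67 and 2.72 there and did not pass (adjusted p = 0.0616 and 0.0706).

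The gene whose profile over the 6 arrays was nearest to each receptor was sought among 123 genes of the lists, after subtracting the MRL mean of each probe. The measure was the root mean square difference in log2 units, and the profile consists mostly of the difference between the groups. Cxcr3 was nearest to Lck, the T cell kinase, at 0.09, the closest match of the 8. Ccr2 was nearest to Prex1 at 0.14 and then to Flt3 at 0.19. Cxcr4 was nearest to the plasma cell gene Prdm1 at 0.22 and Cx3cr1 to Ccl2 at 0.25. Both Ccr6 and Cxcr6 were nearest to the NK cell gene Klrd1, at 0.25 and 0.27. Other genes were almost as near, Rgs16 and Prdm1 to Ccr6 at 0.29 each, and the B cell gene Cd79b and Prdm1 to Cxcr6 at 0.29 each. These distances single out no cell type. Ccr7 was nearest to Cxcl10 at 0.31 and Cxcr5 to Cd2 at 0.35. For Cxcr5 the distance includes MRL signals at background.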

How the data were processed

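RNA of 6 whole kidneys was labelled with Cy3 and hybridized to 1-colour Agilent SurePrint G3 mouse arrays. The paper names Trizol for the isolation and the labels the RNeasy Mini Kit. The authors deposited spot intensities from Agilent Feature Extraction 12.0.3.1 (per the submitters' processing notes), background-subtracted and not normalized between arrays, and a table of the same intensities as a ratio to the 75th percentile of each array, which served as an alternative.

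Control and outlier spots (73 to 90 per array) were left out. Intensities were taken to log2, the 75th percentile of each array (699.6 to 930.1) was subtracted, and spots of a probe were averaged. No spot was saturated. Probes well above background on at least 3 of 6 arrays were tested in limma 3.58.1 (R 4.3.3; lmFit and eBayes, Benjamini-Hochberg, threshold 0.05), without a block. Different probes of a gene were kept apart, and the brightest tested probe stands for a gene. Brightness is the mean signal over the 6 arrays. It only chose between the probes of a gene, and no level of one gene was set against that of another. Summed signals add the signals of a list's tested genes, each by its brightest tested probe, and are led by bright probes. Bounds use, per array, the higher of the probe's own signal and the lowest signal well above background, called the detection limit. An adjusted p given beside a bound is that of the main fit, without the bound.

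The genes named are every receptor probe, the genes of the ligand, receptor, signalling and marker lists, Fas, and the nearest profile of each receptor. Members and lists were chosen with earlier results of these data known. Each array is a separate mouse per the labels, so p-values set the difference between the groups against the spread between mice. The eBayes step of limma moderates this spread over all tested probes. The RefSeq identifiers of all 13 receptor probes were found in a current gene table, with 0 symbols changed. The fit was tested on simulated data. In all, 24 alternatives were run. The authors' comparisons were not used. A gene of the lists is not reported here and remains in the counts.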

Additional observations from a re-analysis of the deposited data

How the results depend on the processing

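Under 24 alternatives the receptors kept their direction, with 6 to 8 genes and 8 to 12 probes higher in LPR mice. All 8 receptor genes were higher with normexp, quantile or median normalization, the authors' divided values and the first position number as a block, and 7 with only probes above background on all 6 arrays, where Cxcr5 could not be tested. After adjustment the methods' t-test gave 7 genes on log2 and on linear values, without Cx3cr1 (adjusted p = 0.0513 and 0.113 for its brighter probe), and 8 without adjustment. Within the set of arrays that share this number and hold both groups, 6 receptor genes, 6 ligand genes and 6 signalling genes were higher, against 8, 13 and 14, with fewer arrays. There the dimmer probes of Ccr7 (adjusted p = 0.0560) and Cx3cr1 (adjusted p = 0.0531) also did not pass.

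The 4 other chemokine receptor genes that were higher fell to 2 with the methods' t-test after adjustment on linear or log2 values, without a filter on dim probes and with normexp, and to 1 with only probes above background on all 6 arrays, with the first position number as a block and within the set that holds both groups. With signals raised to the detection limit 3 were higher, without Xcr1. The genes still higher were among the 4 in each case. The cause was not tested. The count of lower genes rose from 0 to 1, Ccr8, with the methods' t-test without adjustment on linear or log2 values, with only probes above background on all 6 arrays (adjusted p = 0.0494) and without LPR 2. With each mouse left out in turn, 2 to 3 of the 4, 10 to 12 ligand genes and 11 to 14 signalling genes were higher. The count of 2 was found without LPR 2, LPR 3, MRL 1 or MRL 2.

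Normexp, which adds an offset of 50, gave smaller changes for dim probes. Cxcr5 then had a log2 change of 1.60, Ccr7 of 1.90 and 0.61, Cxcr4 of 1.23 and 0.32, and Ccr6 of 1.66, while Cxcr3 had 2.80 and Cxcr6 had 2.06 and 2.16.

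With the replicate number of the labels as a block, 8 receptor genes and 12 receptor probes, 12 ligand genes, 3 other receptor genes and 12 signalling genes were higher. Same-numbered mice deviated together with correlations of 0.12, 0.02 and 0.01, so the numbers were not taken as pairs, and not every mouse correlated best with its own number.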
